A study of Homo sapiens with 15 samples.

Results

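Expression of 10 cadherin genes was examined in the human ovarian cancer cell line PEO1, after sorting of its cells for CD90 and CD133 at the surface. The genes were CDH1, CDH2, CDH3, CDH4, CDH5, CDH6, CDH11, CDH13, CDH16 and CDH17, and every probe set that the array annotation pairs with only 1 of them was taken. Of the 10 genes, 8 had such a probe set, out of 19775 genes measured this way, and together they had 18 probe sets. CDH4 and CDH13 were not analysed here. The genes were chosen by name as cadherins that take part in cadherin switching, at a time when values of CDH6 and CDH11 in CD90+/CD133- and CD90-/CD133- cells were already known. The differences of the cadherin genes between those 2 fractions are therefore given as a description, with no p-value. The differences of CDH6 and CDH11 between CD90+/CD133+ and CD90-/CD133- cells are treated the same way, since the CD90-/CD133- arrays are shared. Further gene lists below were also written with earlier results of these data known. Some of their genes are named because they were called between CD90+/CD133- and CD90-/CD133- cells. Adjusted p-values of listed genes therefore describe the limma fit and are no independent test.

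Classical cadherins are calcium-dependent adhesion proteins that span the cell membrane and bind the same cadherin on a neighbouring cell. Their inner ends hold catenins that tie the contact to the actin cytoskeleton. In the classical form of cadherin switching, epithelial cells lose E-cadherin, the product of CDH1, and gain N-cadherin, the product of CDH2, as they turn mesenchymal and motile. Other members can be exchanged as well, among them K-cadherin from CDH6, a cadherin of the kidney and of ovarian carcinomas, and OB-cadherin from CDH11, a cadherin of bone-forming and other mesenchymal cells.

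Sorting gave CD90-/CD133- cells, CD90+/CD133- cells and also CD90+/CD133+ cells. Each of the 3 fractions had 5 arrays, all came from parental PEO1 cultures in RPMI-1640 with FBS for which the labels name no drug, and the replicate numbers 1 to 5 were used as pairs across fractions. According to the methods, CD90-/CD133- and CD90+/CD133- cells had 5 biological replicates, which matches the arrays, while the submitters' design text speaks of triplicates. All cells derive from a single cell line, so the spread between arrays is that within 1 line. The transcript of CD90, THY1, had intensities of at most 101.3 in CD90-/CD133- cells and of at least 795.3 in CD90+/CD133- cells and 728.5 in CD90+/CD133+ cells. That of CD133, PROM1, reached at most 44.1 in CD90-/CD133- cells and 156.0 in CD90+/CD133- cells and at least 429.3 in CD90+/CD133+ cells. Of 16 measured epithelial markers, 14 were above an intensity of 64 on every array of each fraction, while the lineage factor SOX17 was never above 16. Intensities are the authors' normalised linear values, values under 16 were set to 16, and a gene was read from its brightest probe set, the one with the highest mean over all arrays. A difference is a difference of mean log2 intensities from limma with its standard error (SE), and a probe set was called at an adjusted p under 0.05 over all 41091 probe sets. In sorted bulk samples, fewer cells with a transcript and less of it per cell cannot be told apart.

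CDH1 and CDH2, the pair of the classical exchange, were called in neither direction. CDH6 was high in both CD90+ fractions and low in CD90-/CD133- cells, and CDH11 ran the other way and was measured above the floor of 16 only in CD90-/CD133- cells by its brightest probe set. CDH1 was bright in every fraction with overlapping values, and CDH2 was somewhat brighter in the CD90+ fractions. Between CD90+/CD133- and CD90-/CD133- cells, 1 of the 8 measured cadherin genes was called higher (CDH6), 1 lower (CDH11) and 6 in neither direction, where 11.0% of all genes were called higher and 12.4% lower. By probe set, 6 of 18 were called higher and 2 lower, where 9.99% of all probe sets were called higher and 9.58% lower. Because the choice of genes used this comparison, nothing is read from these shares. The median difference of the 8 genes was 0.08 on the log2 scale, against 0.00 over all genes and -0.03 over those with a mean intensity of at least 64.

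**Figure D1:**
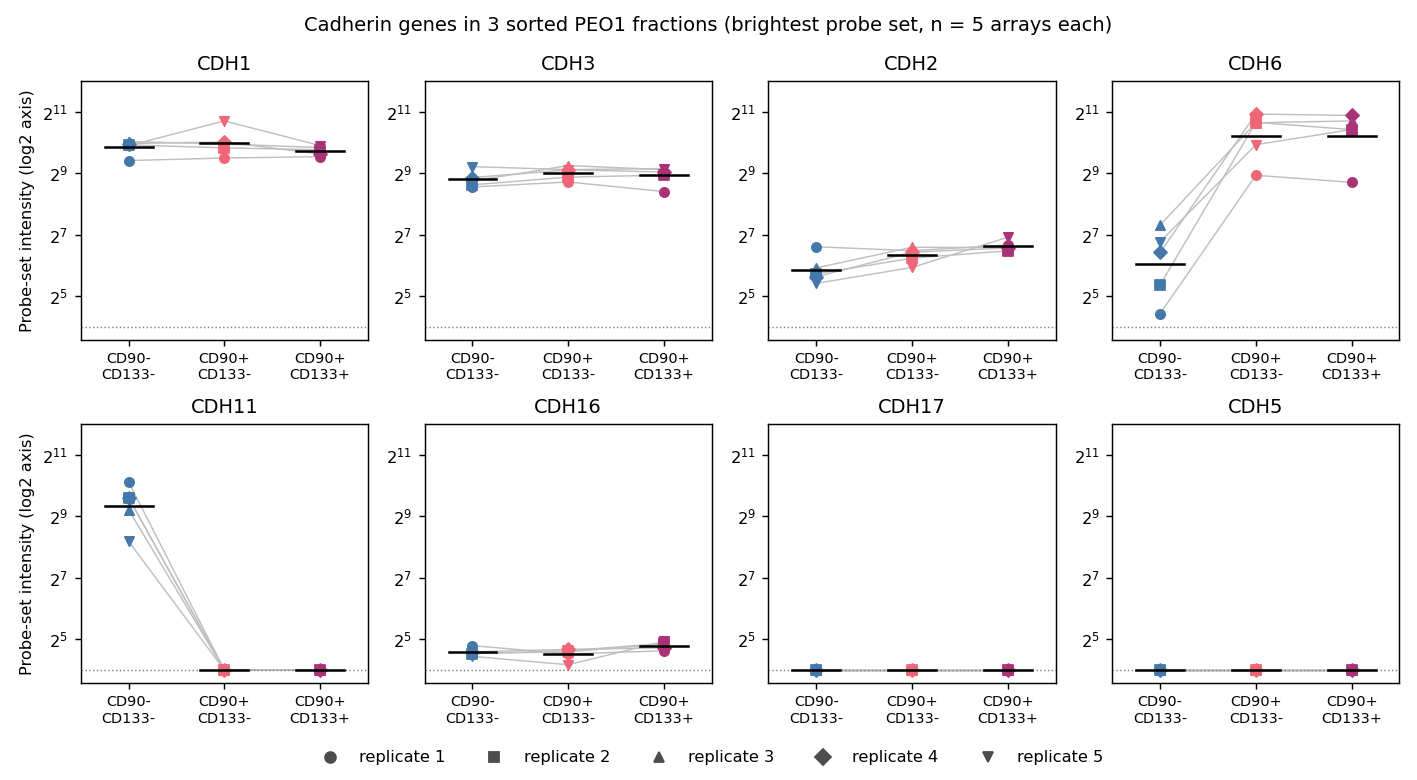
Intensity of the brightest probe set of each of the 8 measured cadherin genes on a log2 axis, for the 3 sorted fractions. Each symbol is an array (5 per fraction, the shape gives the replicate number), grey lines join arrays of the same number, black bars are means of log2 values and the dotted line is the floor of 16, at which lower values were set. CDH6 runs from at most 158.9 in CD90-/CD133- cells to at least 416.3 in both CD90+ fractions, and CDH11 lies at the floor on all 10 CD90+ arrays.

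CDH1 encodes E-cadherin, the type I cadherin of epithelial junctions. Its brightest probe set, 201131_s_at, had intensities of 680.5, 969.0, 1045, 999.7 and 953.0 on the CD90-/CD133- arrays of replicates 1 to 5. The values were 720.9, 907.0, 990.1, 1038 and 1665 in CD90+/CD133- cells, and 743.2, 868.3, 912.4, 788.7 and 956.1 in CD90+/CD133+ cells. The ranges of the fractions overlapped throughout, and a single array, replicate 5 of CD90+/CD133-, stood above the rest.

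The CDH1 difference of CD90+/CD133- from CD90-/CD133- cells was 0.15 on the log2 scale (SE 0.159, 95% interval -0.27 to 0.58). It was positive in 3 of 5 pairs and came to -0.01 when replicate 5 was left out. The CDH1 difference of CD90+/CD133+ from CD90-/CD133- cells was -0.11 (SE 0.0777, 95% interval -0.32 to 0.10, adjusted p = 0.447 from limma). The second CDH1 probe set, 201130_s_at, stayed below 16 on all 15 arrays and carries no information on a difference.

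CDH2 encodes N-cadherin, the type I cadherin gained in the classical switch. Intensities of 203440_at were 97.3, 52.7, 60.4, 49.5 and 42.6 in CD90-/CD133- cells. They were 89.1, 75.2, 96.3, 86.1 and 61.0 in CD90+/CD133- cells and 101.2, 88.9, 95.5, 94.7 and 120.6 in CD90+/CD133+ cells. Replicate 1 of CD90-/CD133- was higher than the other 4 arrays of that fraction, which lay between 42.6 and 60.4, and it made the ranges of the fractions overlap.

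Against CD90-/CD133- cells, CDH2 was brighter in the CD90+/CD133- arrays in 4 of 5 pairs, by 0.48 on the log2 scale on average (SE 0.152), and it was not called. Without replicate 1 the CDH2 difference was 0.63 and passed the threshold. In CD90+/CD133+ cells CDH2 was brighter in 5 of 5 pairs, by 0.78 (SE 0.222, 95% interval 0.19 to 1.38), a 1.72-fold difference of geometric means that missed the threshold (adjusted p = 0.0794 from limma). Without the replicate block the adjusted p of the latter was 0.0397. When the 9503 probe sets at the floor on every array compared, which have no spread between arrays, were left out of the fit, it was 0.0140. The CDH2 call thus changed with these settings, while its difference from CD90-/CD133- cells stayed positive under every alternative run. The other CDH2 probe set, 203441_s_at, lay between 27.1 and 39.0 on all arrays, and its differences from CD90-/CD133- cells were 0.08 for CD90+/CD133- and 0.09 for CD90+/CD133+ cells (adjusted p = 0.703 from limma for the latter).

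CDH3 encodes P-cadherin, a type I cadherin of basal epithelia and placenta that is also found in carcinomas. Intensities of its probe set 203256_at were 375.4, 393.7, 428.9, 463.8 and 593.1 in CD90-/CD133- cells. They were 419.7, 468.7, 607.6, 551.6 and 554.7 in CD90+/CD133- cells, and 338.5, 489.8, 555.1, 526.4 and 568.7 in CD90+/CD133+ cells. The 3 ranges lay over each other.

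The CDH3 difference from CD90-/CD133- cells was 0.21 for CD90+/CD133- cells (SE 0.0917, positive in 4 of 5 pairs, not called). For CD90+/CD133+ cells it was 0.13 (SE 0.0976, 95% interval -0.13 to 0.39, adjusted p = 0.489 from limma).

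CDH6 encodes K-cadherin, a type II cadherin expressed during kidney development and in renal and ovarian carcinomas. Its brightest probe set, 214803_at, had intensities of 21.6, 41.2, 158.9, 85.6 and 108.9 on the CD90-/CD133- arrays. In CD90+/CD133- cells they were 488.5, 1613, 1596, 1945 and 973.9. In CD90+/CD133+ cells they were 416.3, 1369, 1666, 1884 and 1370. No CD90-/CD133- array reached the lowest array of either CD90+ fraction, and replicate 1 was the lowest array of each fraction.

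The CDH6 difference of CD90+/CD133- from CD90-/CD133- cells was 4.16 on the log2 scale (SE 0.381), a 17.8-fold difference of geometric means, and the pairs ranged from 3.16 to 5.29. That of CD90+/CD133+ from CD90-/CD133- cells was 4.17 (SE 0.282), or 17.9-fold, with pairs from 3.39 to 5.05. The differences therefore varied between pairs by more than 1 log2 unit, mostly through the CD90-/CD133- arrays, whose intensities had an SD of 1.15 on the log2 scale against 0.807 and 0.874 in the CD90+ fractions. THY1, read on the same 5 CD90-/CD133- arrays, was 67.8, 68.4, 101.3, 95.1 and 57.8, and its part in the CDH6 values was not tested.

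All 6 CDH6 probe sets were higher in both CD90+ fractions in 5 of 5 pairs, with no overlap of the groups. The share of all probe sets without such overlap was not computed, so the lack of overlap is only a description. After 214803_at, the next was 205532_s_at, at 26.5 to 117.3 in CD90-/CD133-, 355.5 to 1204 in CD90+/CD133- and 336.8 to 900.7 in CD90+/CD133+ cells. The smallest difference was that of 232631_at, at 31.4 to 53.4, 77.8 to 330.8 and 116.7 to 272.2 in the same order. Across the 6 probe sets the difference from CD90-/CD133- cells ran from 2.16 to 4.16 for CD90+/CD133- and from 2.17 to 4.17 for CD90+/CD133+ cells. The probe set 205533_s_at was at the floor on 4 of 5 CD90-/CD133- arrays, so its differences of 3.21 and 2.95 are understated. These probe sets read transcripts of the same gene on the same arrays and are not replicates.

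**Figure D2:**
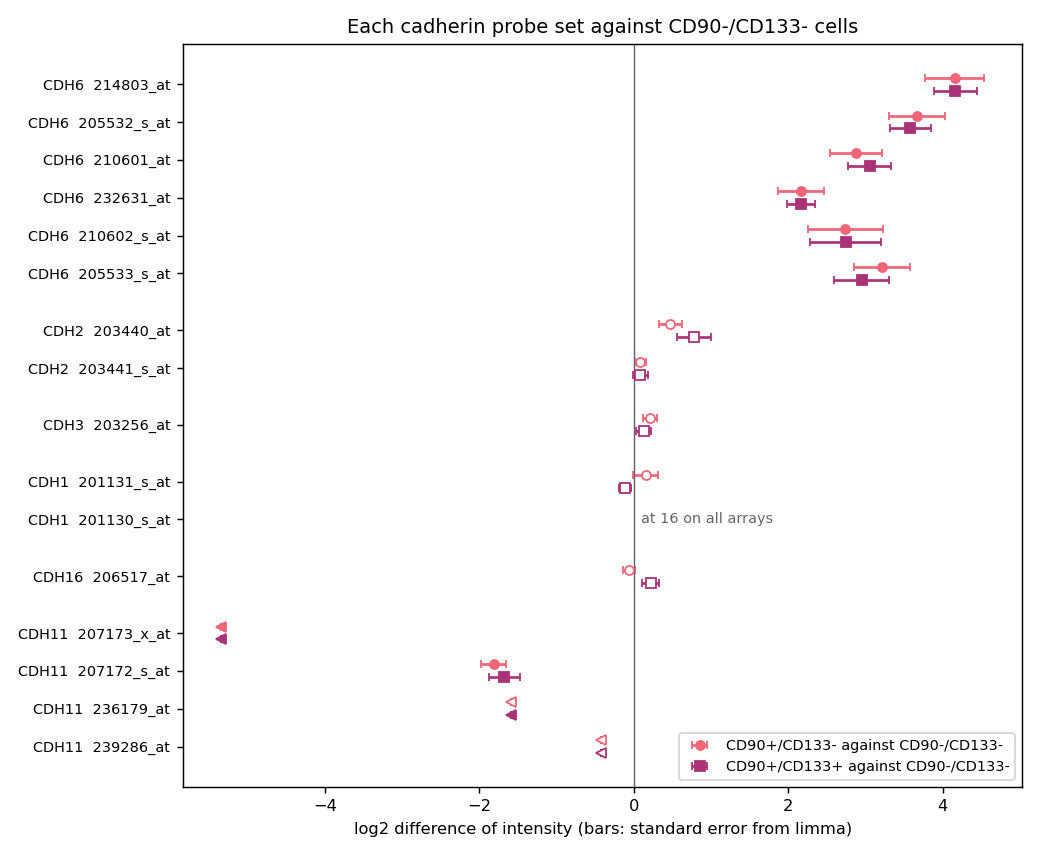
Difference of mean log2 intensity from CD90-/CD133- cells for 16 probe sets of 6 cadherin genes, for CD90+/CD133- (circles) and CD90+/CD133+ cells (squares), with bars of 1 standard error from limma. Filled symbols were called at an adjusted p under 0.05. Triangles mark probe sets at the floor on all CD90+ arrays, whose difference is only a bound. All 6 CDH6 probe sets lie above 2, all 4 CDH11 probe sets lie below 0, and those of CDH1, CDH2, CDH3 and CDH16 lie between -0.11 and 0.78.

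CDH11 encodes OB-cadherin, a type II cadherin of osteoblasts and mesenchymal cells. Its brightest probe set, 207173_x_at, had intensities of 1115, 778.0, 595.2, 775.7 and 291.1 on the CD90-/CD133- arrays. On the 5 CD90+/CD133- arrays it lay between 9.18 and 12.8, and on the 5 CD90+/CD133+ arrays between 5.93 and 12.5, all under the floor. By this probe set, the level in CD90-/CD133- cells was at least 40.7-fold that of either CD90+ fraction, as the mean over the floor of 16. The bound within single pairs ran from 4.19 log2 units in replicate 5 to 6.12 in replicate 1. The ending x_at marks a probe set whose probes may also match other transcripts, so its level alone does not settle that of CDH11.

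The other 3 CDH11 probe sets were dimmer. For 207172_s_at the intensities were 130.4, 109.1, 76.2, 100.6 and 50.1 in CD90-/CD133- cells. They were between 20.0 and 28.5 in CD90+/CD133- cells and between 25.4 and 32.5 in CD90+/CD133+ cells, without overlap. Its differences from CD90-/CD133- cells were -1.81 (SE 0.162) and -1.68 (SE 0.197). For 236179_at the values were 118.7, 50.0, 48.1, 40.4 and 22.3 in CD90-/CD133- cells and at most 6.80 on the CD90+ arrays, which makes CD90-/CD133- cells at least 3.01-fold higher. It was called in the comparison with CD90+/CD133+ cells and not in that with CD90+/CD133- cells. The last, 239286_at, was at 32.1, 30.4, 16.1, 18.3 and 13.1 in CD90-/CD133- cells and under the floor on all CD90+ arrays, a bound of 1.34-fold, with no call. Replicate 1 was the highest and replicate 5 the lowest CD90-/CD133- array in all 4 CDH11 probe sets.

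CDH5, CDH16 and CDH17 mark other tissues and were dim in these cells. CDH5, the cadherin of endothelial cells, lay between 8.20 and 12.4 on all 15 arrays. CDH17, the liver and intestine cadherin, lay between 11.4 and 15.0. Both were under the floor in every fraction, so no difference could be measured.

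CDH16 encodes the kidney-specific cadherin and was just above the floor. Its probe set 206517_at read 27.7, 23.0, 23.4, 24.1 and 21.7 in CD90-/CD133- cells. It read 23.0, 24.7, 24.1, 25.5 and 18.0 in CD90+/CD133- cells and 24.7, 29.1, 28.8, 26.3 and 30.5 in CD90+/CD133+ cells. The ranges overlapped. The difference from CD90-/CD133- cells was -0.06 (SE 0.0809) for CD90+/CD133- and 0.22 for CD90+/CD133+ cells (SE 0.107, adjusted p = 0.264 from limma).

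CD90+/CD133+ cells were compared with the same 5 CD90-/CD133- arrays, so the values of both comparisons stand side by side and neither is a check of the other. There, again 1 of the 8 cadherin genes was called higher (CDH6), 1 lower (CDH11) and 6 in neither direction, where 12.1% of all genes were called higher and 14.1% lower. By probe set, 6 of 18 were called higher and 3 lower, where 9.92% of all probe sets were called higher and 11.9% lower. The median difference of the 8 genes was 0.07, against 0.00 over all genes.

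Setting CD90+/CD133+ against CD90+/CD133- cells asks whether CD133 goes with a further change of cadherins among CD90+ cells. No cadherin gene or probe set passed the test in either direction. Here limma called few genes at all, 0.0455% higher and 0.0354% lower, and 0.0292% of probe sets higher and 0.0584% lower. Against that background a count of 0 among 8 genes is no result about the cadherins. The background itself depended on the fit. It called 36 probe sets, but 1872 when probe sets at the floor on every array compared were left out. Not even PROM1 was called, though it was at most 156.0 in CD90+/CD133- and at least 429.3 in CD90+/CD133+ cells. None of the 18 cadherin probe sets had an unadjusted p under 0.05, and the methods' t-test called none. That test is named among the paper's statistics without being tied to the arrays, for which a fold cutoff on group averages is described. CDH6 differed by 0.01 (SE 0.127), with a 95% interval of -0.33 to 0.35 (adjusted p = 1 from limma). As a ratio, the interval runs from 0.794-fold to 1.27-fold. CDH11 was under the floor in both fractions by 207173_x_at, and by 207172_s_at it differed by 0.14 (adjusted p = 0.581 from limma).

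CDH1 differed by -0.27 (95% interval -0.65 to 0.12, adjusted p = 0.438) and was lower in CD90+/CD133+ cells in 4 of 5 pairs, the largest drop being that of replicate 5. CDH2 differed by 0.31 (95% interval -0.14 to 0.75, adjusted p = 0.438) and CDH3 by -0.08 (95% interval -0.25 to 0.09, adjusted p = 0.636). CDH16 was higher in CD90+/CD133+ cells in 5 of 5 pairs, by 0.28 (95% interval -0.04 to 0.60, adjusted p = 0.326). These p-values are from limma with 5 pairs, and a p above the threshold does not show equal levels.

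By level, then, CDH6 was lowest in CD90-/CD133- cells, while the order of the CD90+ fractions lay within their spread. CDH11 was highest in CD90-/CD133- cells, with no order measurable between the CD90+ fractions. The geometric mean of CDH2 was lowest in CD90-/CD133- (57.9), then CD90+/CD133- (80.5) and CD90+/CD133+ cells (99.6), with each neighbouring pair overlapping. CDH1, CDH3 and CDH16 had no neighbours in the order that were called different.

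Other measures moved with the fractions. The log2 gap between 3' and 5' control probe sets of GAPDH, which grows when RNA is degraded or its copying is incomplete, averaged 0.0565 (SD 0.0317) in CD90-/CD133-, 0.186 (SD 0.0789) in CD90+/CD133- and 0.0498 (SD 0.0408) in CD90+/CD133+ cells (n = 5 each). For ACTB the gaps were 1.84 (SD 0.322), 2.46 (SD 0.564) and 1.70 (SD 0.662). The part of RNA quality in the cadherin values was not tested.

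Because OB-cadherin marks mesenchymal cells, fibroblast markers were set beside CDH11. Summed intensity of 8 fibroblast markers was 347.6 to 413.1 in CD90-/CD133-, 255.8 to 289.2 in CD90+/CD133- and 275.2 to 334.8 in CD90+/CD133+ cells. The sum was highest where CDH11 was. The median log2 difference of the 8 markers from CD90-/CD133- cells was 0.00 for both CD90+ fractions. Only 2 of the 8 were above 64 on any array, so this median says little about how the markers moved. The part of these markers in the CDH11 values was not tested. Of these markers, COL3A1, LUM and PDGFRA were at the floor on all arrays. In CD90+/CD133- cells 1 of 8 was called lower and none higher, beside 12.4% and 11.0% of all genes. It was FAP, a surface protease of activated fibroblasts, which differed by -2.02 log2 units (geometric means 143.9 and 35.4, adjusted p = 0.0094 from limma). Endothelial markers summed to 187.0 to 223.6 over all arrays with none of 8 called, beside the same shares, and KDR, TIE1 and EMCN were at the floor. Leukocyte markers summed to 165.5 to 185.5 in CD90-/CD133- and 196.3 to 288.5 in the CD90+ fractions. PTPRC, LYZ and TYROBP stayed at the floor. In CD90+/CD133- cells 1 of 6 measured was called higher and none lower, beside 11.0% and 12.4% of all genes. It was CD14, higher by 0.96 (adjusted p = 0.0184 from limma).

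Of the 8 measured cadherin genes, 5 (CDH1, CDH3, CDH5, CDH11 and CDH16) lie on chromosome 16, CDH6 on chromosome 5, CDH2 on chromosome 18 and CDH17 on chromosome 8, by the RefSeq gene table of GRCh38.p14. No build is named for the array, so no coordinates are given. Around CDH11, CDH5 and CDH16, which lie close together, the 30 nearest genes with a mean intensity of at least 64 had a median difference of -0.25 between CD90+/CD133- and CD90-/CD133- cells, and 15 of them were called lower and 2 higher. Around CDH1 and CDH3 the median was -0.23, with 12 called lower and none higher. Of all genes, 12.4% were called lower and 11.0% higher in this comparison. The shares among genes with a mean intensity of at least 64 were not computed, so nothing is read from the counts of neighbours. Against the median of all expressed genes, -0.03, the surroundings of the chromosome 16 cadherins were lower by 0.20 to 0.22 log2 units.

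The neighbours of CDH6 had a median of -0.01 and those of CDH2 of 0.00. For CD90+/CD133+ cells the medians were -0.16 around CDH11, -0.20 around CDH1, -0.19 around CDH2, -0.12 around CDH17 and -0.02 around CDH6, so lower surroundings were not particular to chromosome 16 there. In CD90+/CD133- cells CDH11 differed by -5.35, a bound set by the floor, where its surroundings had a median of -0.25. Single genes of chromosome 16 also differed strongly, among them CBFB, close to CDH11, by 5.02 and NETO2 by -4.90. CDH1 differed by 0.15, where its surroundings had a median of -0.23. What part a regional difference has in the cadherin values was not tested.

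**Figure D3:**
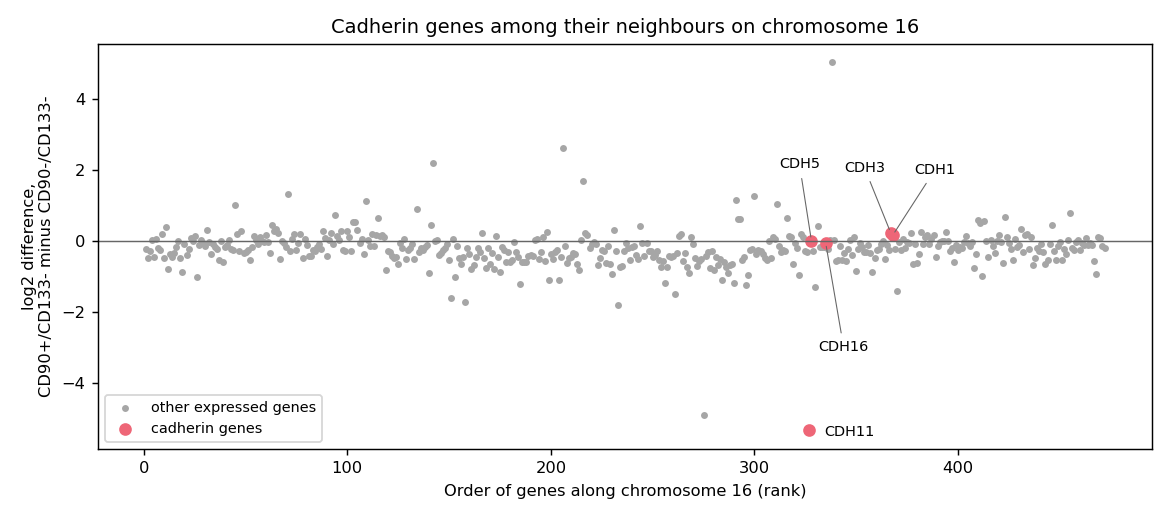
Difference of log2 intensity between CD90+/CD133- and CD90-/CD133- cells for expressed genes of chromosome 16, in gene order, with the 5 measured cadherin genes in red. CDH11 lies at -5.35, a bound set by the floor, and its neighbours had a median of -0.25. CBFB, close to CDH11, lies at 5.02, and NETO2 lies at -4.90. CDH1 and CDH3 lie side by side at 0.15 and 0.21, and CDH5 is at the floor on all arrays.

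The genes whose centred log2 profile over the 15 arrays lay closest to that of CDH6, among 11236 genes with an array above 64, were KLHL14 (root mean square difference 0.642), THY1 (0.724) and ANPEP (0.778), the last of which encodes the surface aminopeptidase CD13. For CDH11 they were NETO2 (0.394), HS6ST2, a heparan sulfate sulfotransferase (0.704), and TRPM1, a cation channel (0.715). NETO2, which lies on chromosome 16 as CDH11 does, differed from CD90-/CD133- cells by -4.90 in CD90+/CD133- and by -5.14 in CD90+/CD133+ cells. The arrays share their sorts and pairs, so the likeness is a description.

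None of 13 further measured CDH genes was called between CD90+/CD133- and CD90-/CD133- cells by limma (1 had an unadjusted p under 0.05, and the methods' t-test called none). For CD90+/CD133+ cells, only CDH24 was called, at 0.33 (adjusted p = 0.016, geometric means 84.7 and 67.5), named after its value was seen. The shares of all genes called higher and lower were 11.0% and 12.4% for CD90+/CD133- and 12.1% and 14.1% for CD90+/CD133+ cells. Of these 13 genes, 6 were at the floor on all arrays and 1 was above 64 on any array.

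Catenins and other partners hold cadherins at the adherens junction, and 8 of 26 measured were called higher and 2 lower in CD90+/CD133- cells, against CD90-/CD133- cells (7 and 4 in CD90+/CD133+ cells), beside 11.0% and 12.4% of all genes (12.1% and 14.1%). A catenin that binds classical cadherins directly and one that links them to actin were among those called higher. CTNNB1, or β-catenin, rose by 0.67 (geometric means 3279 and 5219, SE 0.0190, adjusted p = 0.0012), and CTNNA1, or α-catenin, rose by 0.48 (adjusted p = 0.010). In CD90+/CD133+ cells the rises were 0.39 (adjusted p = 0.0178) and 0.28 (adjusted p = 0.0018). Other CTNNA1 probe sets differed by -0.14 to 1.28 between CD90+/CD133- and CD90-/CD133- cells.

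JUP, the plakoglobin shared with desmosomes, differed by -0.42 in CD90+/CD133- cells (adjusted p = 0.110) and fell by 0.52 in CD90+/CD133+ cells (adjusted p = 0.0399). The polarity factor PARD3 rose by 1.13, the scaffold IQGAP1 by 0.79 and CBLL1, a ligase that marks E-cadherin for uptake, by 0.71 in CD90+/CD133- cells. The other CBLL1 probe set was not called in either comparison, at 0.09 and, for CD90+/CD133+ cells, -0.32. The phosphatase PTPN1 fell by 0.68, while its other probe sets were not called. CTNND1 was not analysed here.

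Desmosomes are the second cadherin-based junction, and of 14 measured desmosome genes 4 were lower and none was higher in CD90+/CD133- cells (5 lower and 1 higher in CD90+/CD133+ cells), where 12.4% and 11.0% of all genes were (14.1% and 12.1%). With an unadjusted p under 0.05, 4 were lower and 3 higher, and the methods' t-test called 1. Those that fell were PPL, a plakin (-0.84, from 608.0 to 340.0, adjusted p = 0.0068), PKP3, a plakophilin (-0.76), DSG2, a desmosomal cadherin (-0.38), and PERP, a membrane protein of desmosomes (-0.25). The other PKP3 probe set, at -0.54, was not called.

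Genes listed as CDH1 repressors or as related to them differed in both directions. Of 16 measured, 2 were higher and 3 lower in CD90+/CD133- cells, where 11.0% and 12.4% of all genes were, and 2 were higher and 5 lower in CD90+/CD133+ cells, where 12.1% and 14.1% were. TWIST1 fell from a geometric mean of 121.5 to 30.5 in CD90+/CD133- cells, a difference of -1.99 (SE 0.120, adjusted p = 0.0028), and the difference was -2.06 in CD90+/CD133+ cells (adjusted p = 0.0031). KLF8 fell by 1.25, with 4 of 5 CD90+/CD133- arrays at the floor, and TCF4, which is named as the last of the 5 called, fell by 1.12.

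FOXC2, a forkhead factor linked to mesenchymal change, rose by 1.33 (29.3 to 73.8) in CD90+/CD133- cells, while its other probe set differed by 0.00. ID2 rose by 1.19, and its protein, which does not bind DNA and so is no direct repressor, inhibits the partners of TWIST1. SNAI2 differed by -0.64 in CD90+/CD133- cells (adjusted p = 0.489) and fell by 1.52 in CD90+/CD133+ cells (adjusted p = 0.0161). ZEB1 was close to the floor in all fractions (geometric means 17.7 to 19.4). Of 12 factors that favour the epithelial state, 3 rose in CD90+/CD133- cells and none fell, namely OVOL1 (1.20), GRHL1 (0.56) and the splicing factor ESRP1 (0.41), where 11.0% of all genes were called higher and 12.4% lower. Each has another probe set that was not called, at 0.20, 0.27 and 0.38. In CD90+/CD133+ cells 2 rose and 2 fell, where 12.1% and 14.1% of all genes did.

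Epithelial markers were split, with 4 of 16 higher and 5 lower in CD90+/CD133- cells, where 11.0% and 12.4% of all genes were. For CD90+/CD133+ cells 3 were higher and 4 lower, where 12.1% and 14.1% of all genes were. In CD90+/CD133- cells the tight-junction protein CLDN3 rose by 1.29 and its relative CLDN4 fell by 0.98 (its other probe set, at -0.02, was not called). There the keratin KRT8 fell by 0.98, and TJP1, a tight-junction scaffold, rose by 0.65. EPCAM, an epithelial adhesion protein, rose by 0.33 (adjusted p = 0.0116) and differed by 0.27 in CD90+/CD133+ cells (adjusted p = 0.067). Of 12 mesenchymal markers, 2 were higher and 2 lower in CD90+/CD133+ cells, where 12.1% and 14.1% of all genes were. In CD90+/CD133- cells 1 was higher and 2 were lower, where 11.0% and 12.4% of all genes were. There the integrin ITGB1 rose by 0.36, the matrix protein SPARC fell by 1.07 and the integrin ITGA5 fell by 0.46. Of the other ITGB1 probe sets 1 was called. VIM, which encodes vimentin, had geometric means of 72.3 and 101.6 (difference 0.49, adjusted p = 0.204). Between the CD90+ fractions no gene of these lists was called by limma.

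**Figure D4:**
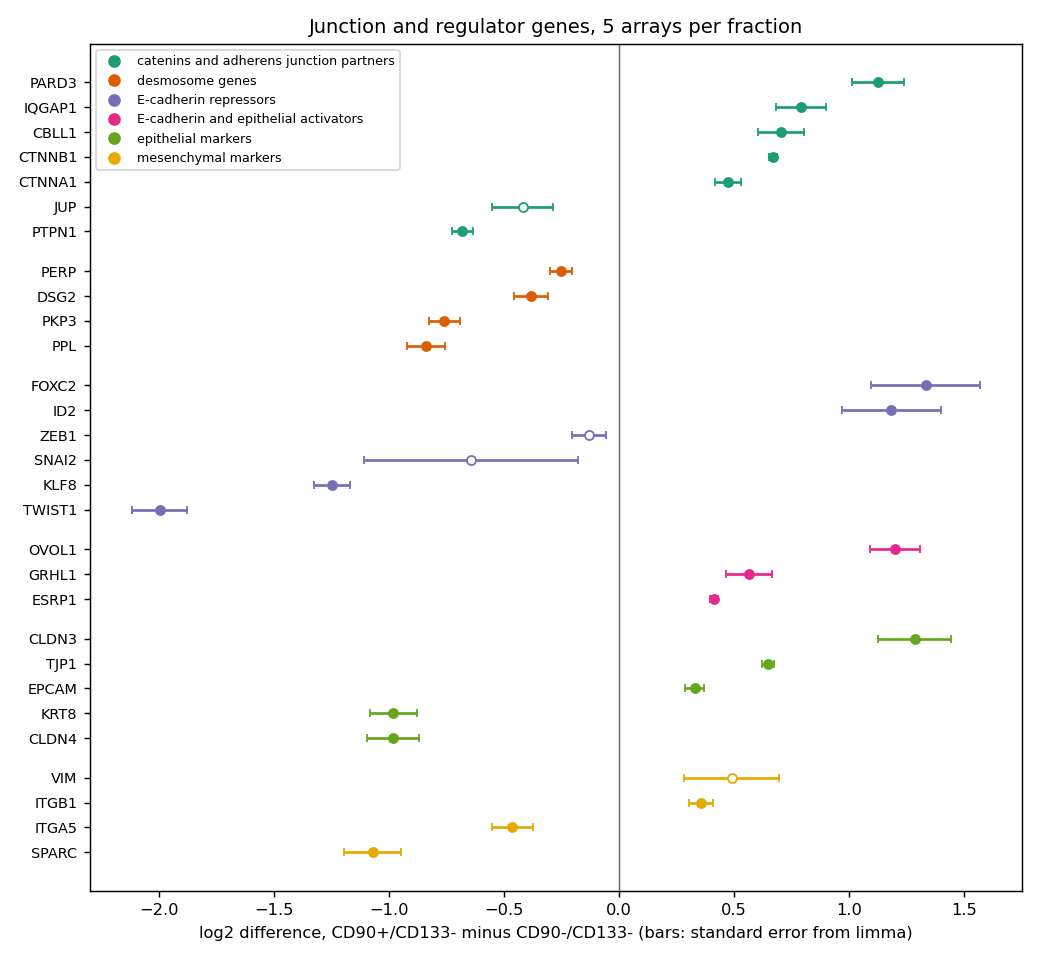
Difference of log2 intensity between CD90+/CD133- and CD90-/CD133- cells, with bars of 1 standard error from limma (5 arrays per fraction), for the named junction, regulator and marker genes. Filled symbols were called at an adjusted p under 0.05 over all probe sets, and colours give the list. The named desmosome genes lie between -0.84 and -0.25, and the repressors spread from TWIST1 at -1.99 to FOXC2 at 1.33.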

How the data were processed

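Biotin-labelled RNA of sorted PEO1 cells was hybridised to Affymetrix whole-genome arrays. The authors deposited a linear intensity for each probe set, normalised by cross-correlation, whose minimum is 5 on each array, and the software that summarised probes is not given in the sources used here. Median intensity per array was 29.4 to 32.4, and 32.7% to 34.5% of probe sets were under 16. The number of arrays, 5 per fraction, limits the precision.

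Of 54675 probe sets, 41091 that name 1 gene and are no controls were used (19775 genes), and 41037 were found in the RefSeq table. A floor of 16 was put under the intensities before the log2 step. Each pair of fractions was fitted by lmFit and eBayes of limma 3.58.1 under R 4.3.3 (replicate number as a block, 2-sided, Benjamini-Hochberg over all probe sets), using only the arrays of the fractions compared. Deviations of same-numbered arrays from their group means correlated at 0.20 to 0.78, 0.19 to 0.77 and 0.35 to 0.84 in the 3 comparisons, above 0.1 in all 5 pairs, and the descriptions in the labels give same-numbered arrays a shared code. There are only 4 codes, because numbers 4 and 5 carry the same one, so those pairs may not be independent. No arrays held identical values. A probe set at the floor throughout a fraction gives a bound, the other fraction's mean over 16. The fit was tested on simulated data.

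The cadherin genes and all gene lists were chosen with earlier results of these data known. Named are all 10 cadherin genes, up to 4 called genes per list with the largest change between CD90+/CD133- and CD90-/CD133- cells, the main catenins, SNAI2, ZEB1, TWIST1, EPCAM, VIM, THY1 and PROM1, and the 3 genes most like CDH6 and CDH11. The alternatives were other normalisations, floors, filters, probe-set rules, blocks, the methods' t-test (named there for statistics generally, while array genes were chosen by a fold cutoff) and leaving out each replicate number. Leaving out probe sets that never exceeded the floor was added after the data were seen.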

Additional observations from a re-analysis of the deposited data

Results flagged for a closer look

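In 3 of 16 groups of 5 arrays, the lowest array stood apart from the others by Dixon's criterion for the gap to the next array over the group's range, which chance gives in about 1 in 20 groups. For CDH1 in CD90-/CD133- cells it was replicate 1, at 680.5 (gap 0.785 of the range). For CDH3 in CD90+/CD133+ cells it was replicate 1, at 338.5 (0.712). For CDH6 in CD90+/CD133+ cells it was again replicate 1, at 416.3 (0.788). The 3 values share a replicate number but come from 2 fractions, and without replicate 1 the counts of cadherin genes called were 3, 2 and 0 in the 3 comparisons.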

How the results depend on the processing

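As a description, since their values were known when the genes were chosen, the CDH6 differences from CD90-/CD133- cells ranged over 18 alternatives from 3.14 to 4.41 for CD90+/CD133- and from 3.11 to 4.36 for CD90+/CD133+ cells, and those of CDH11 from -5.95 to -2.29 and from -6.22 to -2.26. CDH2 was called as well for CD90+/CD133- cells with a floor of 5, with only probe sets of mean log2 of at least 6, without floor-only probe sets and without replicate 1, and for CD90+/CD133+ cells in 6 of 18 alternatives (adjusted p from 0.0027 to 0.215), which makes the count of called cadherin genes 3 in place of 2. Without the replicate block the counts were 2, 3 and 0, and the block changed no other cadherin call. Without a replicate number, CDH1 between CD90+/CD133- and CD90-/CD133- cells gave -0.0090 (without replicate 5) to 0.216. The CDH6 difference between the CD90+ fractions turned to -0.0257 with the mean of probe sets, and leaving out a replicate number gave -0.113 (without replicate 5) to 0.0691, and -0.0054 without replicate 3. Between CD90+/CD133+ and CD90-/CD133- cells, CBLL1 turned to -0.0430 with the mean of probe sets, and ZEB1 gave -0.0684 (without replicate 1) to 0.0545 without a replicate number.

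Calls over all probe sets moved more. CD90+/CD133- against CD90-/CD133- gave 8044, 4637 with a floor of 64 and 3930 to 6643 without a replicate number. CD90+/CD133+ against CD90-/CD133- gave 8958, 5233 and 4925 to 6722. CD90+/CD133+ against CD90+/CD133- gave 36, but 1872 without floor-only probe sets, 2843 with those of mean log2 of at least 6, 1761 with 3 fractions in 1 fit, 905 with a floor of 5 and 0 with a floor of 64, with an intensity trend or without replicate 5. Counts of the lists moved with them: 3 to 8 catenins and partners were higher in CD90+/CD133- cells, 1 to 4 desmosome genes lower and 0 to 3 higher, and 0 to 3 repressors higher and 1 to 5 lower. Calls were lost in 7 of 18 alternatives for DSG2, 9 for PERP, 6 for ID2 and ITGA5 and 6 of 17 for FOXC2 in CD90+/CD133- cells, and in 8 of 18 for JUP in CD90+/CD133+ cells. The causes were not tested. Signal near background limits CDH5, CDH16, CDH17 and most CDH11 probe sets.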
